A study of Mus musculus with 10 samples.

Results

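The insulin-like growth factor (IGF) axis was followed in foetal limb muscle through 9 genes that were chosen by name from the 55401 genes of the deposited table. They are the ligand Igf1, its receptor Igf1r, the binding proteins Igfbp2, Igfbp3, Igfbp4, Igfbp5, Igfbp6 and Igfbp7, and Igfals, which encodes the acid-labile subunit. The tissue came from wild-type ICR foetuses at embryonic day 18.5, and the study describes the foetuses as male. GDM foetuses (5 libraries) came from dams made hyperglycaemic with streptozotocin, a toxin of the insulin-producing beta cell, at gestational days 6.5 and 12.5. CTR foetuses (5 libraries) came from dams injected with buffer on the same days. Each library held a mixture of the cells left after skin and bones had been removed. Neither litter nor dam is in the labels, so each p measures the spread between libraries, some of which may be litter mates.

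IGF1 is a secreted growth factor that is made in the liver under growth hormone and also locally in many tissues, muscle among them. It acts through the receptor tyrosine kinase IGF1R and drives protein synthesis, myoblast proliferation and differentiation. The IGF binding proteins hold the ligand in the extracellular space, can withhold it from the receptor or bring it close to the cell surface, and release it when proteases cut them. In the circulation IGFBP3 or IGFBP5 forms a ternary complex with IGF1 and the acid-labile subunit.

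In GRCm38, Igf1 lies at chr10:87858265-87937042 on the plus strand and Igf1r at chr7:67952827-68233668 on the plus strand. Igfbp2 (chr1:72824503-72852474, plus strand) and Igfbp5 (chr1:72857932-72874884, minus strand) are neighbours whose 3′ ends face each other across 5458 bp. Igfbp3 lies at chr11:7206086-7213923 (minus strand), Igfbp4 at chr11:99041244-99054392 (plus strand), Igfbp6 at chr15:102144362-102149511 (plus strand), Igfbp7 at chr5:77349240-77408041 (minus strand) and Igfals at chr17:24865997-24882010 (plus strand). Values are per gene, over all its annotated transcripts.

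The 250 bases upstream of the RefSeq start (GRCm38.p6) are shown for 3 binding protein genes. Igfbp2 and Igfbp7 are shown because they had the smallest adjusted p in each direction among the 9 genes, and Igfbp5 because it adjoins Igfbp2. Capitals mark ACGTG, the core of the hypoxia response element, and GGGCGG, the GC box, on either strand.
Igfbp2, chr1:72824230-72824479, plus strand: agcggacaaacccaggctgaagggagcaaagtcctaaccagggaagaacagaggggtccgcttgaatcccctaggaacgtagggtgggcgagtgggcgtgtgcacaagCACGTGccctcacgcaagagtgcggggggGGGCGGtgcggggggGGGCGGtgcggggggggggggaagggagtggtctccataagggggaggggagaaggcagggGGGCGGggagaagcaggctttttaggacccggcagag
Igfbp7, chr5:77408046-77408295, minus strand: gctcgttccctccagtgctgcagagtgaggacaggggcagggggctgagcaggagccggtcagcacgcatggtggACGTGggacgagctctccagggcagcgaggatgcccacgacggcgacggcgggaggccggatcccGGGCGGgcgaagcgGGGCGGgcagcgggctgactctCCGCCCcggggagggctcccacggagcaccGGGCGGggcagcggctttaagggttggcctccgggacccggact
Igfbp5, chr1:72874866-72875115, minus strand: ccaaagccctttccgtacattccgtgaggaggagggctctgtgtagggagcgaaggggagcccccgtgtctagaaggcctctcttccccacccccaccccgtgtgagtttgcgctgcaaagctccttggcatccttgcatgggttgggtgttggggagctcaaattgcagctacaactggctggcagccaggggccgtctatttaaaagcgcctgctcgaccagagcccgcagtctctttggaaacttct

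All 9 genes were matched in the RefSeq table, with 12 upstream windows between them, since Igfbp2 and Igfals have several starts. ACGTG was found in the windows of Igfbp2 and Igfbp7 and in no other member's, which is 2 of 12 windows (16.7%), close to the 16.6% of all 32851 windows. In Igfbp2 the 2 matches were the overlapping strands of a single CACGTG that began 142 bases before the start, and in Igfbp7 the match began 175 bases before it. GGGCGG occurred 3 times upstream of Igfbp2 and 4 times upstream of Igfbp7, and windows of Igf1r and Igfals also held it, against 32.7% of all windows. The cAMP response element TGACGTCA (1.55% of all windows) was in none of the 12, and its 5′ part TGACG, which the full element contains and which can share bases with ACGTG, was only in a window of Igfals (17.8% of all windows). TATAAA, the TATA box, was found upstream of Igfbp4 and Igfbp6 (12.4% of all windows). The Igfbp5 window held none of these words. Each match is a description of letters on either strand and not a site, and a window without a match says nothing of the factor.

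Expression was given as FPKM, fragments per kilobase of transcript per 1 M mapped fragments. Depth was estimated at 17.8 to 20.4 M fragments in GDM libraries and 14.1 to 16.2 M in CTR libraries, so depth and group cannot be told apart. Mitochondrially encoded genes took 9.43 to 12.3% of summed FPKM in GDM and 16.3 to 19.0% in CTR libraries, and 13281 to 13725 genes in GDM and 12939 to 13132 genes in CTR libraries reached 1 FPKM. Neither measure overlapped between the groups, and the part of either in the results was not tested. Muscle fibre markers checked the tissue label: their summed FPKM was 16202 to 22633 in GDM and 28519 to 33993 in CTR libraries, and 7 of 9 were lower (3 of 9 under quantile normalization). Marker sums were without overlap for fibroblasts (2470.5 to 3149 FPKM in GDM, 1516 to 2069 in CTR; 4 of 7 higher and 1 lower), for endothelial cells (125 to 145 and 166 to 218; 5 of 8 lower), for myogenic progenitors (268 to 313 and 159.9 to 202; 4 of 5 higher) and for adipocytes (5.42 to 17.5 and 204 to 1442; 5 of 5 tested lower). Chondrocyte markers came to 14.5 to 28.7 FPKM in GDM and 4.42 to 10.1 FPKM in CTR libraries, and 3 of 3 tested were higher. Osteoblast (4 of 5) and tendon markers (4 of 4) were also higher, with sums that overlapped, while pericyte and smooth muscle markers moved in both directions (2 of 6 higher and 2 lower, or 1 and 4 after the median ratio scaling described below). That scaling left 7 of 8 endothelial and 8 of 9 muscle fibre markers lower, and 3 of 7 fibroblast and 3 of 5 myogenic progenitor markers higher. Among all tested genes 35.1% were called higher and 10.9% lower as deposited, and 34.7% did not overlap between the groups. In bulk tissue, fewer cells of a type and less RNA per cell cannot be told apart, and the part of these shifts in the results below was not tested except where a value is given.

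Of the 9 genes, 8 reached 1 FPKM in 5 or more libraries, the filter used, and 5 of these 8 changed at an adjusted p under 0.05 (limma on log2(FPKM + 1), Benjamini-Hochberg over 13363 genes). Igf1, Igf1r and Igfbp2 rose and Igfbp6 and Igfbp7 fell, while Igfbp3, Igfbp4 and Igfbp5 did not pass. Across all tested genes 46.0% were called, 35.1% higher and 10.9% lower. The groups did not overlap for 4 of the 8 genes, 3 with every GDM library above and 1 with every GDM library below, against 34.7% of all tested genes (27.2% above and 7.43% below). The median log2 fold change was 0.34 over the 8 genes and 0.15 over all tested genes. Median ratio scaling, which removes most of a shift that all genes share, moved that overall median by -0.15, and 38.6% of genes were then called, 19.2% higher and 19.4% lower. After this scaling 4 of the 8 genes were called, Igf1r and Igfbp2 as higher and Igfbp6 and Igfbp7 as lower, and the call of Igf1 was lost. Igf1 was called in the other 14 of 15 alternatives, quantile normalization included (0.26, adjusted p = 0.012).

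**Figure D1:**
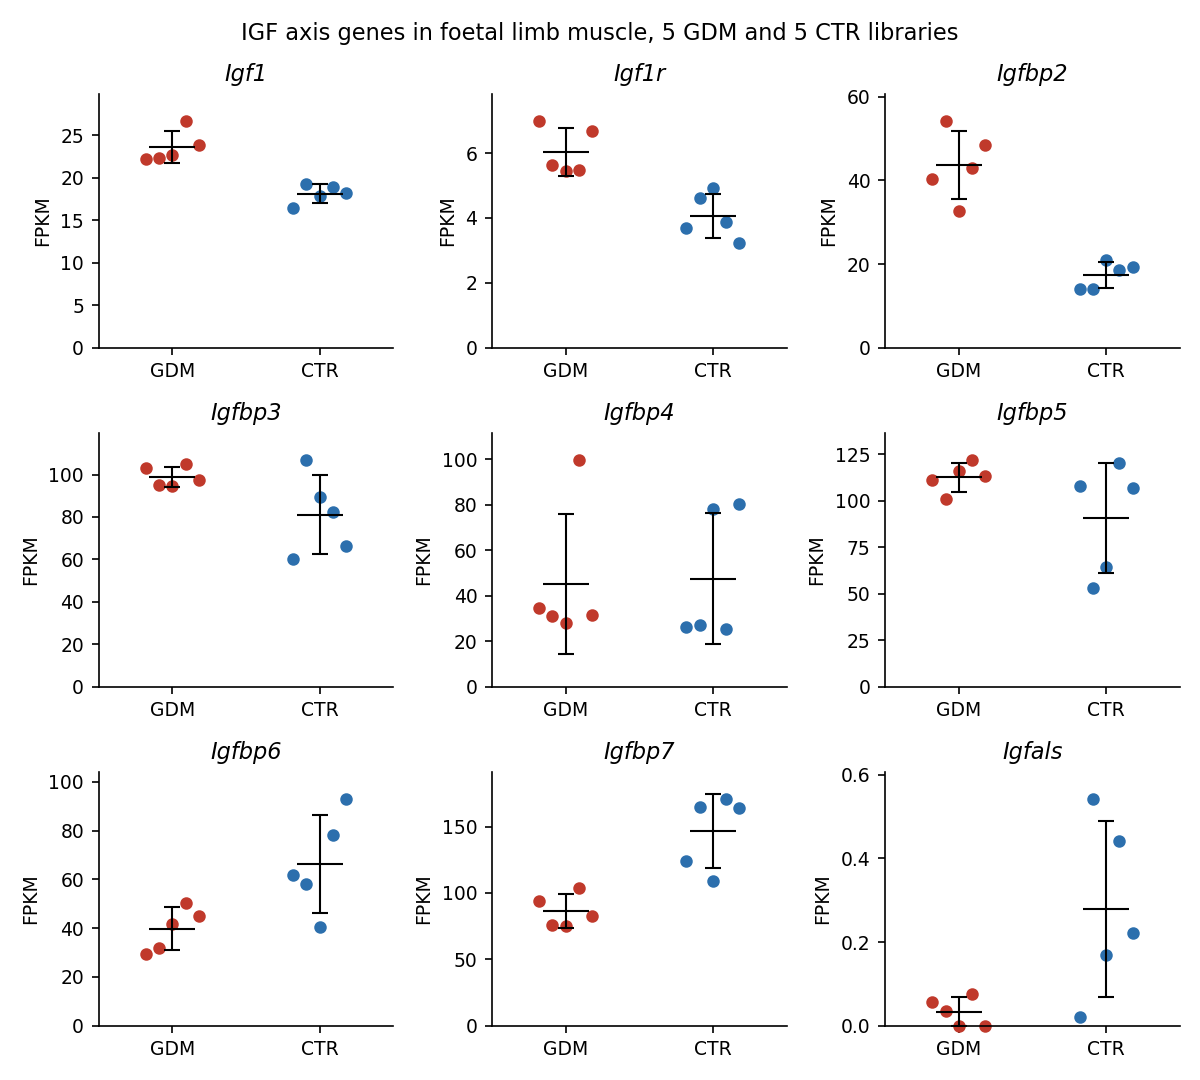
FPKM (linear axis from 0) of each of the 9 genes in the 5 GDM (left) and 5 CTR (right) libraries; points are libraries, horizontal bars are means and error bars are SD. Igf1, Igf1r and Igfbp2 are higher and Igfbp7 lower in every GDM library, the points of the other genes overlap, and Igfbp4 has 3 libraries far above the other 7.

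Igf1, the ligand, had 22.2, 22.3, 22.7, 26.7 and 23.9 FPKM in GDM libraries 1 to 5, against 16.4, 19.2, 17.8, 18.9 and 18.2 FPKM in CTR libraries 1 to 5. Every GDM library was above every CTR library, and the spread within each group was narrow. Igf1 averaged 23.6 ± 1.85 FPKM in GDM and 18.1 ± 1.09 FPKM in CTR muscle (SD, n = 5 each), a log2 fold change of 0.36 (SE 0.07, 95% interval 0.22 to 0.51, limma adjusted p = 0.0013). A two-sided exact permutation test gave p = 0.00794, the smallest that 5 against 5 libraries allow. After median ratio scaling the log2 fold change of Igf1 was 0.18 with an adjusted p of 0.060. Macrophages and fibroblasts are both known to make IGF1. Summed macrophage markers overlapped, at 67.5 to 100.1 FPKM in GDM and 85.4 to 121 FPKM in CTR libraries, and 2 of 7 were lower. Per 100 FPKM of summed macrophage markers Igf1 stood at 25.0 to 33.0 in GDM and 15.9 to 20.8 in CTR libraries, without overlap. Per 100 FPKM of summed fibroblast markers Igf1 was 0.706 to 0.906 in GDM (median 0.866) and 0.88 to 1.17 in CTR libraries (median 0.929). The groups overlapped through CTR library 5 only, and every other CTR library was above all GDM libraries. The type I collagen genes Col1a1 and Col1a2, which bone and tendon cells also express, made up 62.4 to 67.0% of that sum in GDM and 49.6 to 52.7% in CTR libraries. The fibroblast gene Dcn did not pass (log2 fold change 0.11, limma adjusted p = 0.39). Over Dcn, Igf1 was at 0.205 to 0.245 in GDM (median 0.233) and 0.163 to 0.216 in CTR libraries (median 0.183), again with overlap. Which group had the higher median thus depended on the denominator.

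Igf1r, the receptor, was the lowest of the tested members and had 7.00, 5.62, 5.46, 5.47 and 6.69 FPKM in GDM libraries, against 3.69, 4.61, 4.91, 3.87 and 3.23 FPKM in CTR libraries. The groups did not overlap, and the gap between the lowest GDM and the highest CTR library was small. Its means were 6.05 ± 0.736 and 4.06 ± 0.686 FPKM (SD, n = 5 each, GDM and CTR), with a log2 fold change of 0.48 (SE 0.11, limma adjusted p = 0.0037). The call held after median ratio scaling (0.32, adjusted p = 0.032). Per 100 FPKM of summed myogenic progenitor markers, Igf1r overlapped between GDM (1.83 to 2.61, median 1.87) and CTR libraries (1.93 to 2.84, median 2.42). Per 100 FPKM of summed fibroblast markers it also overlapped, with 0.178 to 0.239 in GDM (median 0.222) and 0.156 to 0.324 in CTR libraries (median 0.204). Over Dcn, Igf1r was 0.046 to 0.0654 in GDM (median 0.0603) and 0.0289 to 0.0597 in CTR libraries (median 0.0408), again with overlap. Here too the group with the higher median depended on the denominator. The ratio of Igf1 to Igf1r FPKM overlapped between GDM (3.18 to 4.87) and CTR libraries (3.61 to 5.64).

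Igfbp2, a binding protein abundant in foetal life that prefers IGF2 over IGF1, showed the largest fold change of the 8 tested members. It had 40.4, 54.3, 32.8, 43.0 and 48.4 FPKM in GDM libraries, against 14.1, 14.1, 21.0, 18.7 and 19.2 FPKM in CTR libraries. The lowest GDM library lay well above the highest CTR library. Igfbp2 averaged 43.8 ± 8.14 FPKM in GDM and 17.4 ± 3.14 FPKM in CTR muscle (SD, n = 5 each), 2.51 times as high, with a log2 fold change of 1.28 (SE 0.15, 95% interval 0.95 to 1.61, limma adjusted p = 0.00011). After median ratio scaling it was 1.10 (adjusted p = 0.00040). Per 100 FPKM of summed fibroblast markers, Igfbp2 was 1.28 to 2.20 in GDM (median 1.40) and 0.756 to 1.38 in CTR libraries (median 0.921), which overlapped through CTR library 3. Over Dcn alone it was 0.354 to 0.583 in GDM and 0.155 to 0.255 in CTR libraries, without overlap. The ratio of Igfbp2 to its neighbour Igfbp5 was 0.282 to 0.536 in GDM and 0.131 to 0.326 in CTR libraries, which overlapped.

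Igfbp3, the main carrier of IGFs in serum, had 103, 95.3, 94.4, 105 and 97.6 FPKM in GDM libraries, against 60.2, 107, 89.5, 82.5 and 66.5 FPKM in CTR libraries. The GDM libraries lay close together and CTR library 2 exceeded all of them. The log2 fold change was 0.31 (95% interval 0.01 to 0.62) with a limma adjusted p of 0.086, and without CTR library 2 it was 0.42 with an adjusted p of 0.013. Igfbp3 did not pass in the other 14 of 15 alternatives. After median ratio scaling it was at 0.13 (adjusted p = 0.50), and without CTR library 5 at 0.25 (adjusted p = 0.18).

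Igfbp5, which differentiating myoblasts are known to secrete, had 111, 101, 116, 122 and 113 FPKM in GDM libraries, against 108, 53.3, 64.3, 120.2 and 107 FPKM in CTR libraries. CTR libraries 2 and 3 were low and the other 3 lay within the range of the GDM libraries. The log2 fold change of 0.38 (95% interval -0.09 to 0.85) did not pass (limma adjusted p = 0.17). It was 0.21 without CTR library 2, 0.19 after median ratio scaling and 0.50 without CTR library 4 (adjusted p = 0.077). These 2 last values are the ends of its range over the 15 alternatives, in none of which it was called. Library-to-library spread differed for both genes: the SD of log2(FPKM + 1) was 0.07 in GDM and 0.33 in CTR for Igfbp3, and 0.10 in GDM and 0.52 in CTR for Igfbp5. This difference in spread was not tested.

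Igfbp4, an inhibitory binding protein that the protease PAPP-A cleaves, took either of 2 levels. It had 34.5, 30.9, 28.0, 99.7 and 31.7 FPKM in GDM libraries, against 26.3, 27.3, 77.9, 25.5 and 80.2 FPKM in CTR libraries. GDM library 4 and CTR libraries 3 and 5 were high, the other 7 libraries lay between 25.5 and 34.5 FPKM, and no library fell between. Means of 45.0 ± 30.7 FPKM in GDM and 47.5 ± 28.9 FPKM in CTR muscle (SD, n = 5 each) therefore describe neither level, and the log2 fold change of -0.06 had a 95% interval of -1.04 to 0.93 (limma adjusted p = 0.93). The gene has 6 transcripts in the deposited table, which gives a single value a gene, so whether the 2 levels come from the quantification of these transcripts was not tested.

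Igfbp6, which binds IGF2 far more tightly than IGF1, had 29.6, 32.0, 41.9, 50.4 and 44.8 FPKM in GDM libraries, against 61.9, 58.0, 40.4, 78.3 and 93.1 FPKM in CTR libraries. CTR library 3 lay among the GDM libraries and the other 4 CTR libraries were above all of them. The log2 fold change was -0.70 (SE 0.22, limma adjusted p = 0.025), and the exact permutation test gave a two-sided p = 0.0317. The call was lost when GDM library 1 or 2 or CTR library 4 or 5 was left out, with log2 fold changes of -0.60, -0.63, -0.62 and -0.56 and adjusted p of 0.062, 0.059, 0.059 and 0.053. Per 100 FPKM of summed fibroblast markers, a sum in which type I collagen is the largest part, Igfbp6 was 0.942 to 1.67 in GDM and 2.66 to 4.50 in CTR libraries, without overlap. Over Dcn alone it was 0.273 to 0.452 in GDM and 0.491 to 0.833 in CTR libraries, also without overlap, the nearest being GDM library 3 and CTR library 3. Dcn is 1 of 7 fibroblast markers that did not move together, with 4 called higher. Dpt, another of them, was called lower, as Igfbp6 was (log2 fold change -0.46, limma adjusted p = 0.015). The ratio of Igfbp6 to Dpt was not computed, and the part of fibroblast content was not tested.

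Igfbp7, a relative with low affinity for IGFs that vessels are known to express strongly, had 94.2, 75.8, 74.8, 104 and 82.9 FPKM in GDM libraries, against 124, 165, 109, 171 and 164 FPKM in CTR libraries. All GDM libraries were below all CTR libraries, the nearest being GDM library 4 and CTR library 3. The means were 86.4 ± 12.6 FPKM in GDM and 147 ± 27.9 FPKM in CTR muscle (SD, n = 5 each), with a log2 fold change of -0.75 (SE 0.14, 95% interval -1.07 to -0.43, limma adjusted p = 0.0019). It was -0.93 after median ratio scaling (adjusted p = 0.00060). Of the 8 endothelial markers 5 were called lower and 3 did not pass, and their summed FPKM was lower in every GDM library. Per 100 FPKM of their sum Igfbp7 was 54.1 to 71.7 in GDM (median 66.5) and 63.3 to 97.7 in CTR libraries (median 75.7). The groups overlapped through CTR library 3 only, and every other CTR library was above all GDM libraries.

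Igfals, which hepatocytes are known to express, was barely detected. It had 0.0556, 0.0355, 0.0001, 0.0767 and 0.0001 FPKM in GDM libraries, against 0.021, 0.543, 0.168, 0.441 and 0.221 FPKM in CTR libraries, where 0.0001 is the floor at which the table lists genes without signal. CTR library 1 lay among the GDM libraries and the other 4 CTR libraries were above them, at levels worth few fragments. The gene did not pass the filter, and in the fit without a filter its log2 fold change was -0.29 (limma adjusted p = 0.074). None of the 7 hepatocyte markers passed the filter either, with summed FPKM of 0.363 to 1.33 in GDM and 0.563 to 1.48 in CTR libraries.

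**Figure D2:**
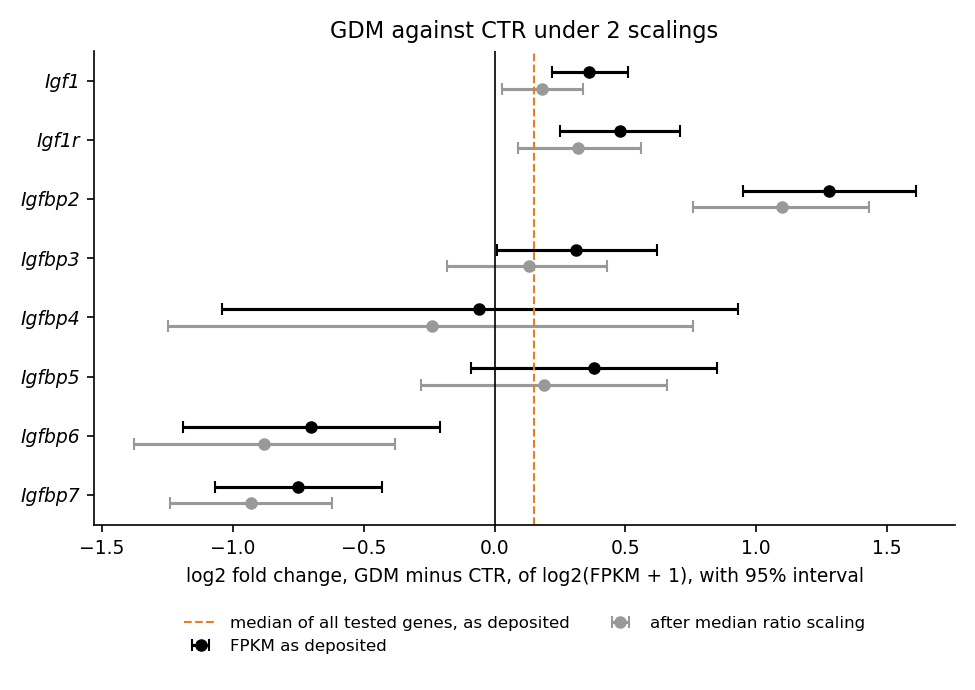
Log2 fold change, GDM minus CTR, of the 8 tested genes with 95% intervals on the log2(FPKM + 1) scale, from FPKM as deposited (black) and after median ratio scaling (grey); the dashed line is the median of all tested genes, 0.15. Igfbp2 lies farthest right at 1.28 and Igfbp7 farthest left at -0.75, and the interval of Igfbp4 spans -1.04 to 0.93.

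The binding protein genes were also compared as a sum and as shares of it. Summed FPKM of Igfbp2 to Igfbp7 was 388 to 525 in GDM (median 413) and 394 to 529.5 in CTR libraries (median 425), so the groups overlapped. Igfbp2 made up 8.19 to 13.9% of this sum in GDM (median 9.77%) and 3.32 to 5.21% in CTR libraries (median 3.63%). Igfbp7 made up 19.3 to 22.8% in GDM and 27.2 to 38.8% in CTR libraries. Both shares separated the groups without overlap, as the FPKM of both genes already did, while the shares of Igfbp3, Igfbp4, Igfbp5 and Igfbp6 overlapped. FPKM of Igfbp2 over that of Igfbp7 was 0.413 to 0.717 in GDM and 0.0856 to 0.192 in CTR libraries, and the summed binding proteins over Igf1 came to 17.1 to 19.7 in GDM and 22.1 to 29.1 in CTR libraries. These ratios within a library do not depend on scaling between libraries and are given without a test. The summed binding proteins include Igfbp7, the relative with low affinity for IGFs, so their ratio to Igf1 is no measure of IGF-binding capacity. The ratio without Igfbp7 was not computed.

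**Figure D3:**
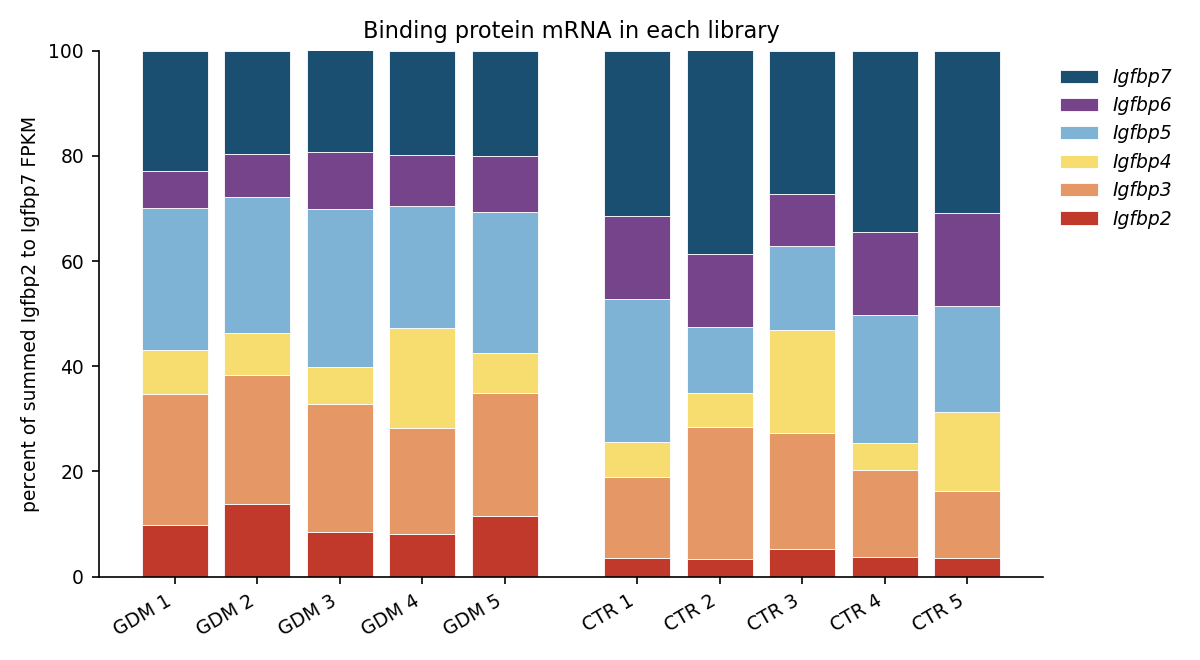
Percent of summed Igfbp2 to Igfbp7 FPKM taken by each gene, 1 stacked bar per library, GDM libraries left and CTR libraries right. The bottom segment, Igfbp2, is 8.19 to 13.9% in GDM and 3.32 to 5.21% in CTR libraries, and the top segment, Igfbp7, is 19.3 to 22.8% in GDM and 27.2 to 38.8% in CTR libraries.

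By mean FPKM, which is per length, the order in GDM muscle was Igfbp5, Igfbp3, Igfbp7, Igfbp4, Igfbp2, Igfbp6, Igf1, Igf1r and Igfals. In CTR muscle it was Igfbp7, Igfbp5, Igfbp3, Igfbp6, Igfbp4, Igf1, Igfbp2, Igf1r and Igfals. In GDM muscle Igfbp4 was above Igfbp2 in 1 of 5 libraries, library 4, and Igfbp2 was above Igfbp6 in 3 of 5. Igfbp7 stood at place 3 in GDM and at place 1 in CTR muscle, and Igfbp2 passed both Igf1 and Igfbp6. Ranges of neighbours in this order overlapped among the first 6 genes in GDM and the first 5 in CTR muscle, and Igf1 also overlapped with Igfbp2 in CTR. Igf1r lay below the range of its upper neighbour and above that of Igfals in both groups.

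Among 38 other genes of the pathway, 31 were tested, 11 rose, 1 fell and 19 were not called, beside 35.1% higher and 10.9% lower among all tested genes. After median ratio scaling 4 rose and 5 fell, beside 19.2% and 19.4% of all tested genes. The share called higher was thus close to that of all genes, and the balance of directions depended on the scaling. Of the other ligands and receptors, Igf2r, the receptor that clears IGF2, had 56.8, 56.2, 52.1, 51.8 and 59.0 FPKM in GDM libraries, against 37.8, 35.6, 40.5, 31.9 and 28.9 FPKM in CTR libraries. No GDM library came near a CTR library, and the log2 fold change was 0.65 (SE 0.09, limma adjusted p = 0.00025; 0.47 after median ratio scaling, adjusted p = 0.0027). Igf2, the foetal ligand and the most abundant of these mRNAs, had 402, 1322, 655, 1361 and 1339 FPKM in GDM libraries, against 1328, 1218, 1357, 1374 and 1362 FPKM in CTR libraries. GDM libraries 1 and 3 were low and the other 3 lay within the CTR range, and the difference did not pass (-0.54, adjusted p = 0.19). It was smaller without GDM library 1 (-0.24) and under quantile normalization (-0.31). It was larger without GDM library 4 or 5 (-0.68 each) and after median ratio scaling (-0.73, adjusted p = 0.10), and was not called there either. Insr, the insulin receptor, scattered between 0.699 and 5.55 FPKM in GDM and between 0.631 and 8.36 FPKM in CTR libraries (-0.07, adjusted p = 0.93). What part the quantification of single transcripts had in the levels of Igf2 and Insr was not tested. Igfbp1, Igfbpl1, Ins2 and Insrr did not pass the filter.

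Of 5 tested genes for proteases that cut the binding proteins, or for their inhibitors, 3 were called higher (35.1% of all tested genes) and none lower, and 2 were called higher after median ratio scaling (19.2% of all). Stc1, a stanniocalcin that blocks PAPP-A proteases, had 2.56, 2.41, 1.95, 1.96 and 2.16 FPKM in GDM libraries, against 0.746, 0.570, 0.758, 0.970 and 1.05 FPKM in CTR libraries (0.82, SE 0.09, adjusted p = 8.4e-05; 1.35 with a pseudocount of 0.1). Htra1, a secreted serine protease, averaged 28.4 ± 4.44 FPKM in GDM and 15.8 ± 3.92 FPKM in CTR muscle (SD, n = 5 each), a log2 fold change of 0.83 (limma adjusted p = 0.0020). For both genes every GDM library was above every CTR library, and both calls held after median ratio scaling. Adam12 rose by 0.25 (adjusted p = 0.034; 0.09 and 0.41 after median ratio scaling), with CTR library 2 within the GDM range, and its call was lost when any 1 of 8 libraries was left out. Stc2 was at 0.10 (adjusted p = 0.52). Pappa2, a protease known to cut IGFBP3 and IGFBP5, did not pass the filter and is named because its groups did not overlap: 0.592 to 1.25 FPKM in GDM and 0.125 to 0.351 FPKM in CTR libraries (0.54 in the fit without a filter, adjusted p = 0.0032).

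Of the 6 genes of growth hormone input, 1 was called higher, 1 lower and 4 neither, beside 35.1% higher and 10.9% lower among all tested genes. After median ratio scaling 2 were lower and none was higher (19.4% and 19.2% of all). Stat5a, a transcription factor that carries the growth hormone signal, averaged 3.48 ± 0.344 FPKM in GDM and 5.15 ± 0.609 FPKM in CTR muscle (SD, n = 5 each) and fell without overlap (log2 fold change -0.45, limma adjusted p = 0.0014). Cish, a feedback inhibitor of this signal, rose by 0.27 (adjusted p = 0.048), a call lost after median ratio scaling (0.12, adjusted p = 0.38) and when any of the 10 libraries except CTR library 2 was left out. Ghr, the growth hormone receptor, was at -0.20 (adjusted p = 0.13) as deposited and fell by 0.37 after median ratio scaling (adjusted p = 0.013). Socs2, another feedback inhibitor, was at 0.08 (adjusted p = 0.48).

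Below the receptor 6 of 17 tested genes rose and none fell, against 35.1% of all tested genes higher. After median ratio scaling 1 rose and 3 fell, beside 19.2% higher and 19.4% lower among all tested genes. Grb10, an adaptor that binds the IGF1 and insulin receptors and restrains their signal, had 158, 159, 159, 159 and 165 FPKM in GDM libraries, against 114, 95.6, 104, 99.4 and 90.4 FPKM in CTR libraries. Its log2 fold change was 0.67 (SE 0.07, limma adjusted p = 4.4e-05) as deposited and 0.48 after median ratio scaling (adjusted p = 0.00051). Pik3r2, a regulatory subunit of PI3 kinase, rose by 0.37 (adjusted p = 0.0022), the kinase Akt1 by 0.26 (adjusted p = 0.0025) and the adaptor Shc1 by 0.33 (adjusted p = 0.0050). After median ratio scaling these 3 genes were at 0.19, 0.07 and 0.16, none of them called (adjusted p of 0.067, 0.29 and 0.093), whereas under quantile normalization all 3 were called (0.25, 0.20 and 0.21, adjusted p of 0.021, 0.0079 and 0.041). The 3 that then fell, Akt2, Mtor and Eif4ebp1, were at -0.11, -0.17 and -0.07 as deposited and at -0.30, -0.33 and -0.26 after scaling (adjusted p of 0.0012, 0.014 and 0.0067).

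**Figure D4:**
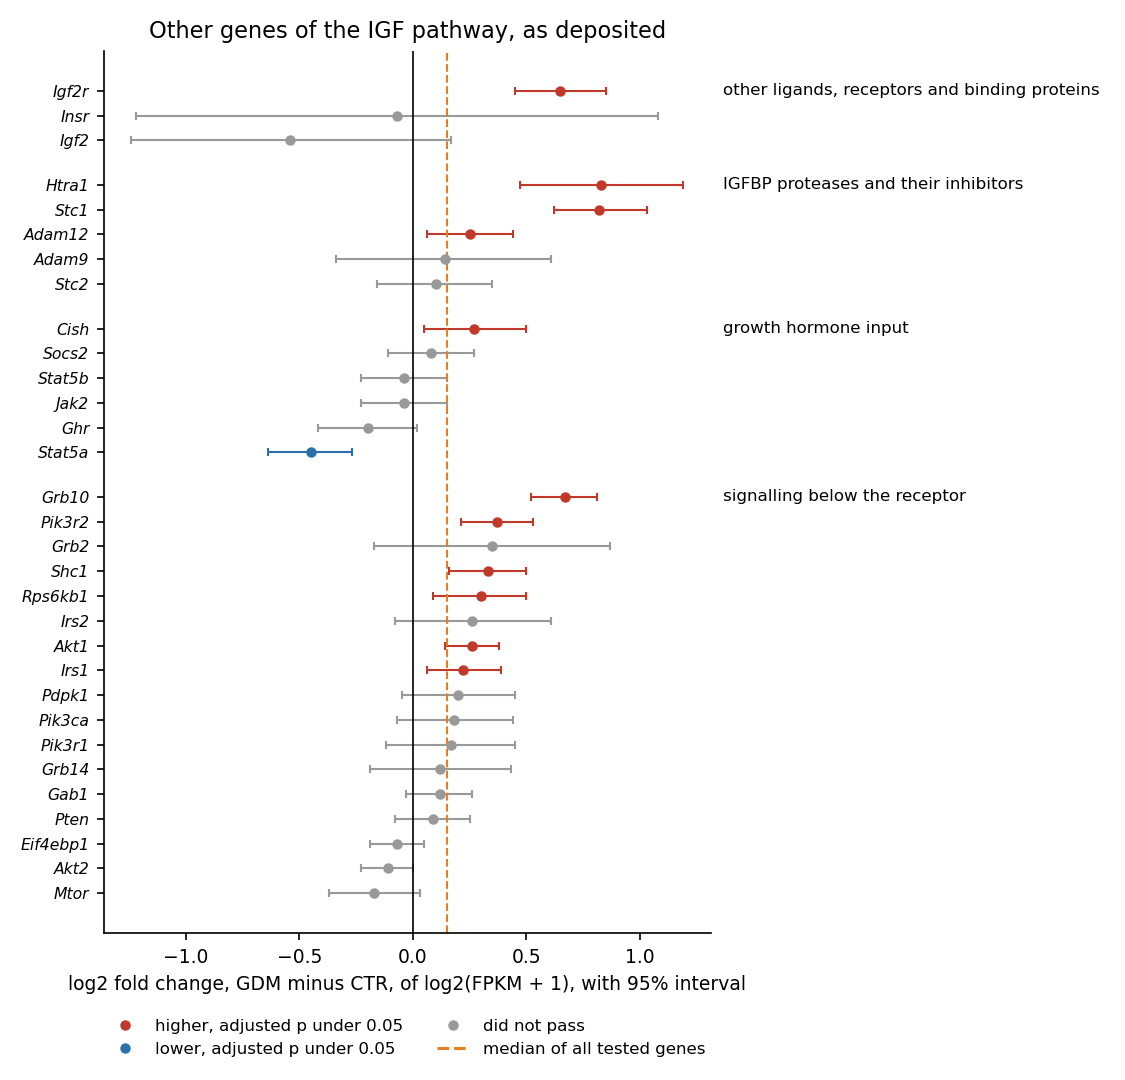
Log2 fold change, GDM minus CTR, with 95% intervals of the 31 tested pathway genes in 4 lists, from FPKM as deposited on the log2(FPKM + 1) scale; red marks genes higher and blue genes lower at an adjusted p under 0.05, grey the rest, and the dashed line is the median of all tested genes. Htra1, Stc1, Grb10 and Igf2r lie farthest right, from 0.65 to 0.83, Stat5a is the only blue point at -0.45, and Insr and Igf2 have the widest intervals.

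Likeness to a member was measured over the 10 libraries as the mean absolute difference of log2(FPKM + 1) after centring each gene. Closest to Igf1 were Rspry1 (0.040), Mzt1 (0.045) and Nck1 (0.047), against a median of 0.20 over all tested genes. Closest to Igfbp2 were Tceal3 (0.148), the limb homeobox gene Hoxa11 (0.163) and the connexin gene Gja5 (0.167), against a median of 0.58. Closest to Igfbp7 were C130074G19Rik (0.084), Epas1, which encodes the hypoxia factor HIF2A (0.098), and Lrrn4cl (0.102), against a median of 0.47. The likeness includes the difference between the groups itself. Nearest to the 2 levels of Igfbp4, and looked up after its values were seen, was Naa60 (0.297, against a median of 0.67). Naa60 had 10.7 FPKM in GDM library 4 and in CTR library 5 and 3.30 to 3.92 FPKM in the other 8 libraries, CTR library 3 included.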

How the data were processed

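RNA-seq was performed on poly(A) RNA of limb muscle from 5 GDM and 5 CTR foetuses at ED18.5. The deposited table holds gene FPKM for every library, made by the authors with HISAT2 2.0.4 and StringTie 1.3.4d on mm10, with 0 replaced by 0.0001. Whether counting used the strand is not given in the sources used here. The deposited fold change, its log2 value and the authors' p-value hold their own comparison and were not used.

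Groups were taken from the treatment in the labels. The 13363 of 55401 genes that reached 1 FPKM in 5 or more libraries were tested on log2(FPKM + 1) with limma 3.58.1 under R 4.3.3, with a robust mean-variance trend, no covariate and Benjamini-Hochberg adjustment; this scale understates changes of low genes. Single genes were also compared by a two-sided exact permutation test over all 252 splits. The fit was tested on simulated data. Sums, ratios and depth were computed in Python 3.11.15 with pandas 2.3.3. Depth was estimated from the lowest values of genes with 1 transcript and is approximate, so no counting intervals are given.

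Alternatives were a pseudocount of 0.1, no filter, median ratio scaling, quantile normalization, a block for the replicate number, and the removal of each library in turn. Named genes were the 9 members, up to 4 genes of smallest adjusted p from each pathway list, and the 3 genes most alike to Igf1, Igfbp2 and Igfbp7; others were named after their values were seen. A gene of the signalling list is not reported here. The members and lists were chosen with earlier results of these data known. Coordinates are from GENCODE vM21 (GRCm38).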

Additional observations from a re-analysis of the deposited data

Results flagged for a closer look

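In 5 of 48 groups examined, 1 library lay apart from the other 4 of its group, with a gap over 0.71 of the group's range; chance gives about 1 in 20 groups. Igfbp4 had 99.7 FPKM in GDM library 4, against 28.0 to 34.5 FPKM in the other GDM libraries (gap 0.837 of the range). Adam12 had 7.37 FPKM in GDM library 1, against 6.48 to 6.67 FPKM in the other GDM libraries. Grb10 had 165 FPKM in GDM library 5, against 158 to 159 FPKM in the other 4. Cish had 4.84 FPKM in CTR library 2, against 3.04 to 3.44 FPKM in the other CTR libraries. Igf2 had 1218 FPKM in CTR library 2, against 1328 to 1374 FPKM in the others.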

How the results depend on the processing

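Igf1r, Igfbp2 and Igfbp7 kept their calls in all 15 alternatives, with log2 fold changes of 0.32 to 0.57, 1.10 to 1.38 and -0.93 to -0.68. Under median ratio scaling 2567 of all tested genes were higher and 2592 lower, and under quantile normalization 2881 and 2343, against 4691 and 1451 as deposited. Of the other pathway genes, 4 were higher and 5 lower under median ratio scaling, and 7 and 4 under quantile normalization. Stc2 turned to -0.04 and -0.05 and Socs2 to -0.05 and -0.06 under these 2 scalings. Without the filter 1 member was lower, since Igfbp6 no longer passed (-0.70, adjusted p = 0.053) among more genes tested. With 1 library left out, 1 to 2 members and 1 to 2 other pathway genes were lower, Igfbp4 ranged from -0.39 to 0.18 and Insr from -0.34 to 0.29. With the replicate number as a block, 4171 genes were higher and 1269 lower, no member's call changed, 7 of the other pathway genes were higher against 11 without it, and the calls lost included Adam12 (0.25, adjusted p = 0.071) and Cish (0.27, 0.091). Same-numbered libraries correlated at -0.072 to -0.019 in their deviations from the group means, so the numbers showed no sign of a shared source. With 5 libraries a group this check cannot exclude one. Depth limits Igfals and the other genes near the floor. With 5 libraries a group and no litter in the labels, differences between dams were not measured.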
